A study of Mus musculus with 8 samples.

Results

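The transcripts of immunoglobulin variable (V) segments were examined in prostates of male NOD/ShiLtJ mice, an inbred strain prone to autoimmune diabetes. The control group, control 1, 3, 65 and 69, received the vehicle PBS, and the etanercept group, etanercept 17, 19, 50 and 52, received 4 mg/kg etanercept, a decoy receptor for the cytokine TNF. Both groups were injected 2 times per week for 5 weeks and harvested at 30 weeks of age, and each mouse gave 1 bulk RNA library. The question was how V segment usage, its concentration and its sharing between mice compared under TNF blockade. The V genes were chosen by their measured values: each gene with the biotype IG_V_gene in GENCODE M21 and a sum of 20 or more counts over the 8 mice was taken. This gave 138 of the 218 V genes in the count table of 54532 genes, with 76 of 113 heavy chain, 59 of 102 kappa and 3 of 3 lambda genes. Of the other V genes, 53 had a count of 0 in every mouse and 27 had between 1 and 19 counts. The chosen genes held 83592 counts and the rest of the V genes 213. Just inside the threshold lay Ighv5-15 with 20 counts, and just outside lay Ighv5-9-1 with 19.

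B cells assemble an antibody gene by joining 1 of many V segments to shorter D and J segments at the heavy chain locus, and a V to a J segment at the kappa and lambda loci. Each B cell clone and its progeny then transcribe the same rearranged V segment, and plasma cells, which secrete antibody, do so at very high levels. A tissue with few expanded clones therefore draws its V transcripts from few segments, whereas a mixed population draws on many.

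The heavy V genes of the table lay on chr12:113578504-116000461 (GRCm38), all 76 chosen ones on the minus strand. The kappa V genes lay on chr6:67555497-70704177, with 23 of the chosen genes on the plus strand, which is that of the constant gene Igkc, and 36 on the minus strand. The 3 lambda genes lay on chr16:19085017-19260859. The exon length of the chosen genes was 359 bases at the median, with a range from 344 to 480. Counts were not divided by exon length unless stated. The total count over all genes was 25178942, 14088213, 13760669 and 18870437 in control 1, 3, 65 and 69 and 17739635, 19698140, 17437320 and 14246828 in etanercept 17, 19, 50 and 52.

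Summed heavy V expression was 63.6, 813.5, 286.8 and 80.7 CPM (counts scaled to the library size with TMM factors) in control 1, 3, 65 and 69 and 137.3, 52.9, 81.4 and 180.1 in etanercept 17, 19, 50 and 52. Control 3 was the highest mouse and control 65 the next, while control 1 and control 69 lay within the range of the etanercept group. Summed kappa V expression was 147.3, 1275.8, 426.9 and 296.8 CPM in the controls and 250.5, 173.2, 255.3 and 425.3 in the etanercept group, in the same order of mice. Lambda V expression was 22.0, 106.7, 54.2 and 11.7 CPM in the controls and 29.0, 5.29, 15.2 and 20.7 in the etanercept group. The groups overlapped for all 3 chains. The means were 311.2 ± 349.9 and 112.9 ± 56.9 CPM for heavy V, 536.7 ± 505.8 and 276.1 ± 106.3 CPM for kappa V and 48.7 ± 42.7 and 17.6 ± 9.95 CPM for lambda V in control and etanercept mice (SD, n = 4 per group), so that each difference was smaller than the SD of the control group. On the log2(CPM + 1) scale the difference of etanercept minus control was -0.87 for heavy, -0.58 for kappa and -1.18 for lambda V, and without control 3 it was -0.16, -0.02 and -0.66. Without control 1 the heavy and kappa differences were -1.38 and -1.05, and without etanercept 19 all 3 were -0.56, -0.39 and -0.73. Summed heavy constant genes were at 4964.1, 16268.2, 9651.0 and 1005.1 CPM in the controls and 3018.4, 714.5, 1649.4 and 1519.2 in the etanercept mice, in the same order. On that measure control 1 lay above every etanercept mouse, unlike for heavy V. In bulk tissue, fewer B lineage cells, less RNA per cell and fewer V reads assigned to a segment cannot be told apart.

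**Figure D1:**
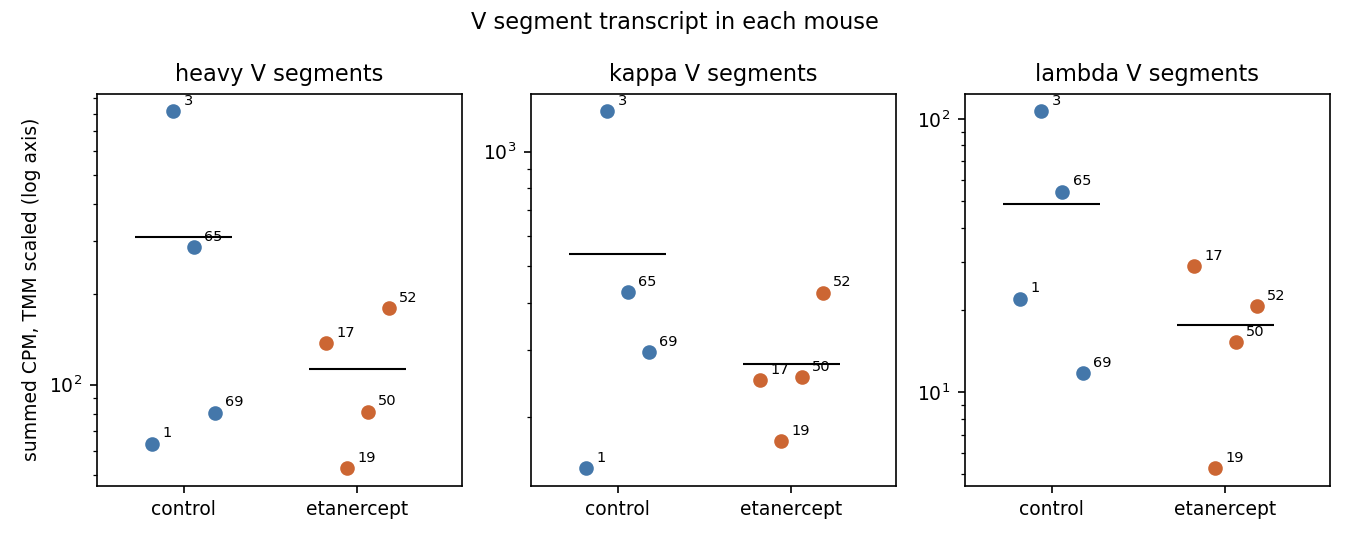
Summed CPM (log axis) of heavy, kappa and lambda V segments in each mouse, labelled by animal number, with the group mean as a line. Control 3 is the highest mouse in each panel, at 813.5, 1275.8 and 106.7 CPM, and the groups overlap.

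The heavy repertoire was led by a different segment in nearly every mouse. Ighv1-22 took 45.7% of the heavy V counts of control 1 (Wilson 95% interval 43.4 to 48.0), where it had 805 counts. Its counts were 18, 0 and 0 in control 3, 65 and 69 and 7, 28, 6 and 46 in etanercept 17, 19, 50 and 52. The segment was thus high in a single mouse. In the other controls the leading heavy segments were Ighv1-69 with 14.3% (13.7 to 14.9) in control 3, Ighv1-50 with 15.8% (14.7 to 16.9) in control 65 and Ighv9-3 with 11.5% (9.96 to 13.3) in control 69. In the etanercept group Ighv14-2 led in etanercept 17 with 8.55% (7.49 to 9.75) and in etanercept 50 with 20.4% (18.3 to 22.6), Ighv3-6 led in etanercept 19 with 10.2% (8.47 to 12.2) and Ighv1-7 led in etanercept 52 with 9.49% (8.42 to 10.7). Counted per base of exon, Ighv1-52 led in control 65 and Ighv8-12, which is named after its values were seen, in etanercept 52. These intervals cover counting error only, because PCR copies of a transcript are not independent.

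Ighv14-2 and Ighv3-6 led in 3 of the 4 etanercept mice and were also present in controls. The share of Ighv14-2 was 0, 2.26, 0.245 and 6.80% in control 1, 3, 65 and 69 and 8.55, 3.43, 20.4 and 5.11% in etanercept 17, 19, 50 and 52. The count of 0 in control 1 allows a share of up to 0.170%. Control 69 lay among the etanercept mice, so the groups overlapped. The share of Ighv3-6 was 1.31, 2.18, 3.02 and 2.08% in the controls and 6.14, 10.2, 16.1 and 1.27% in the etanercept mice. Here 3 etanercept mice stood above every control and etanercept 52 below every control. In CPM, Ighv3-6 was at 0.83, 17.7, 8.65 and 1.68 in the controls and 8.43, 5.39, 13.1 and 2.28 in the etanercept mice, with means of 7.23 ± 7.84 and 7.30 ± 4.60 (SD, n = 4 per group). Control 3 was the highest of all 8 mice, and without it the edgeR log2 fold change was 0.99. Ighv9-3 had shares of 0, 2.83, 4.27 and 11.5% in the controls and 2.71, 4.44, 3.30 and 1.69% in the etanercept mice, which lay within the control range.

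Some of a set of closely similar Ighv1 segments were high in part of the controls. Counts of Ighv1-69 were 79, 1751, 414 and 11 counts in control 1, 3, 65 and 69 and 0, 11, 4 and 22 in etanercept 17, 19, 50 and 52. Ighv1-50 had 128, 508, 643 and 45 counts in the controls and 0, 24, 3 and 44 in the etanercept mice. Control 3 and control 65 were the high mice for both segments, and control 69 was low enough to overlap the etanercept group in CPM. Ighv1-52 had 187, 504, 585 and 53 counts in the controls and 24, 20, 19 and 155 in the etanercept mice. Ighv1-59 had 16, 324, 367 and 0 counts in the controls and 14, 0, 0 and 6 in the etanercept mice. These 4 segments were highest in control 3 and control 65. Segments with the same end did not all follow this pattern, as 2 more of them show, which are given after their values were seen. Ighv1-55 had 18, 57, 13 and 7 counts in the controls and 0, 24, 53 and 201 in the etanercept mice, and Ighv1-61, which is 98.6% identical to Ighv1-52, had 10, 524, 16 and 0 in the controls and 103, 0, 0 and 57 in the etanercept mice. The edgeR log2 fold change of etanercept against control was -6.01 (SE 1.62) for Ighv1-69, -4.27 (SE 1.30) for Ighv1-50, -2.57 (SE 1.02) for Ighv1-52 and -5.27 (SE 1.84) for Ighv1-59, with a Benjamini-Hochberg adjusted p of 0.739 for each. For Ighv1-55 it was 1.67 (SE 1.34) and for Ighv1-61 -1.87 (SE 1.93), with adjusted p of 0.87 and 0.923 in edgeR by the same method. Single mice moved these values. Without control 3 the log2 fold change was -4.20 for Ighv1-69, 2.80 for Ighv1-55 and 2.32 for Ighv1-61, the last with its sign turned. Without etanercept 52 it was -7.04 for Ighv1-69, -5.43 for Ighv1-50, -4.14 for Ighv1-52 and 0.03 for Ighv1-55, and without etanercept 17 it was -6.48 for Ighv1-59 and -2.80 for Ighv1-61.

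The ends of these segments are shown because they bear on how far reads can be assigned to them. The last 60 bases of the V exon were the same in 6 chosen genes, Ighv1-50, Ighv1-52, Ighv1-55, Ighv1-59, Ighv1-61 and Ighv1-69, and capitals mark the codon of the conserved cysteine that closes the V segment framework. The sequences are those of GENCODE M21 on the minus strand of GRCm38, at chr12:115623161-115623220 for Ighv1-69, chr12:114746273-114746332 for Ighv1-22, chr12:113994469-113994528 for Ighv14-2 and chr12:114288152-114288211 for Ighv3-6.
Ighv1-69: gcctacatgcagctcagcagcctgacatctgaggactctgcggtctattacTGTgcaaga
Ighv1-22: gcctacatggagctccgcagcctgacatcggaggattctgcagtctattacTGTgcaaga
Ighv14-2: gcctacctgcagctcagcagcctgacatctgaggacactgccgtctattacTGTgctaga
Ighv3-6: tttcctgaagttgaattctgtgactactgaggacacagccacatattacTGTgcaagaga
Over the last 280 bases Ighv1-69 and Ighv1-50 were 97.1% identical, and Ighv1-69 and Ighv3-6 57.1%. Of all windows of 100 bases in the transcript, 97.6% occurred in no other annotated V gene or V pseudogene for Ighv1-69, 86.9% for Ighv1-50, 70.6% for Ighv1-52 and 89.3% for Ighv1-59. Counts of these segments are therefore uncertain where a read fell in a shared window. For 86 of the 138 chosen genes every window was unique, and for 4 fewer than 50% were. NOD alleles can differ from the reference, and the effect of that on the counts was not tested.

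Igkv4-53, Igkv6-20 and Igkv5-45 had the largest mean shares of the kappa segments, and their shares varied widely between mice. Igkv4-53 had 11.4, 3.8, 32.7 and 13% of kappa V counts in control 1, 3, 65 and 69 and 7.19, 2.71, 24.4 and 0.993% in etanercept 17, 19, 50 and 52. It led in control 65 and in etanercept 50, and the groups overlapped. Igkv5-45 had 8.87, 3.66, 6.56 and 35.6% in the controls and 4.39, 17.9, 3.18 and 0.862% in the etanercept mice, and led in control 69 and etanercept 19. Igkv6-20 had 8.01, 6.87, 20.3 and 1.69% in the controls and 6.80, 2.38, 5.64 and 33.8% in the etanercept mice, where it led in etanercept 52. For Igkv6-20 and Igkv5-45 only 44.2% and 67.1% of the windows were unique among V genes, and their nearest segments were Igkv6-29 and Igkv5-43, with 98.2% and 98.9% identity, so that the counts of these pairs are uncertain. Igkv9-124 led in control 1 with 26.4% (25.1 to 27.8) and had between 0.409% and 4.52% in the other mice. Igkv2-109 led in etanercept 17 with 10.6% (9.74 to 11.6) and had at most 1.37% in the other mice.

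Igkv19-93, the 1 chosen gene of its family, had the smallest edgeR p of the V segments. Its counts were 319, 4500, 164 and 373 in control 1, 3, 65 and 69 and 93, 79, 69 and 31 in etanercept 17, 19, 50 and 52, or 11.5, 299.1, 11.5 and 21.6 CPM against 5.41, 4.22, 4.12 and 2.15 CPM. Every control was above every etanercept mouse, and control 3 was far above the other controls. The means were 85.9 ± 142.2 and 3.97 ± 1.35 CPM (SD, n = 4 per group). The edgeR log2 fold change was -4.43 (SE 1.14), with an unadjusted p of 0.00321 and a Benjamini-Hochberg adjusted p of 0.739 over all 15472 genes tested. Without control 3 it was -1.91. Igkv1-132, a segment at low level, had 74, 13, 20 and 74 counts in the controls and 0, 3, 3 and 0 in the etanercept mice, again without overlap. Only the controls were above the level of the filter on low counts for this gene, so that in the edgeR fit it was tested because it was high in that group. Its edgeR log2 fold change was -4.63 (SE 1.23) with an adjusted p of 0.739 by the Benjamini-Hochberg method, whereas DESeq2 gave -4.76 with an adjusted p of 0.0271 by the same method.

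The ends of the leading kappa segments are given for comparison with the heavy segments, again with the codon of the conserved cysteine in capitals. They lie on the minus strand of GRCm38 at chr6:69648824-69648883 for Igkv4-53, chr6:69775750-69775809 for Igkv5-45 and chr6:68736297-68736356 for Igkv19-93.
Igkv4-53: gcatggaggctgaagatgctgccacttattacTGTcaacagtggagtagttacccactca
Igkv5-45: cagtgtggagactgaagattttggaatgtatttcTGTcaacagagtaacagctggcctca
Igkv19-93: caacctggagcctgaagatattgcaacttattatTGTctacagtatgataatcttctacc
More germline bases follow the cysteine codon in these kappa segments than in the heavy segments above. Igkv19-93 was 63.9% identical to Igkv4-53 and 66.1% to Igkv5-45 over the last 280 bases, and all of its windows were unique.

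**Figure D2:**
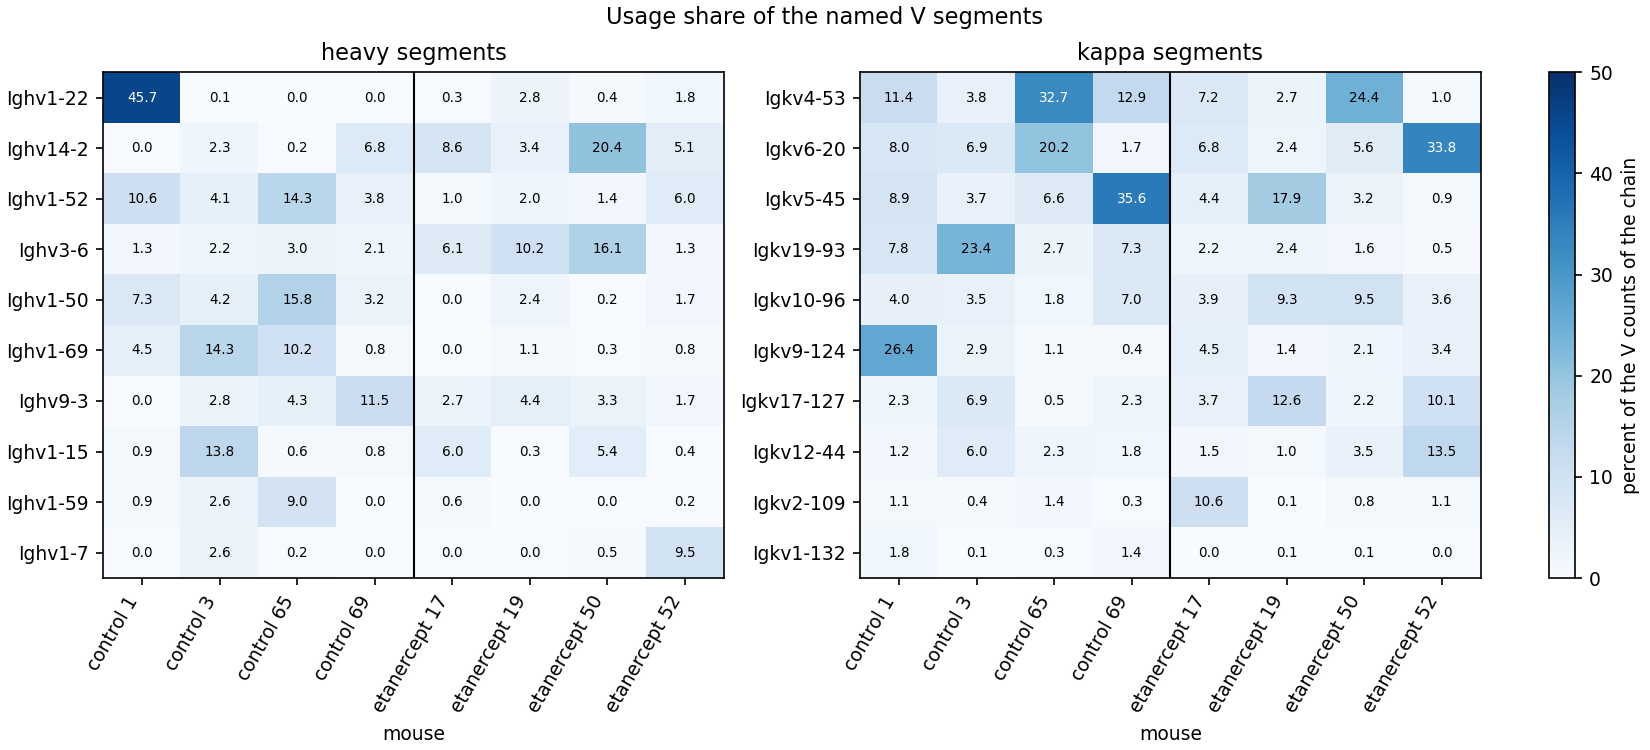
Percent of the heavy (left) and kappa (right) V counts of each mouse, given in each cell, for the named V segments (rows) in the 8 mice (columns), with a line between the groups. Ighv1-22 holds 45.7% in control 1 and Igkv19-93 23.4% in control 3.

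Lambda V counts came mainly from Iglv1. The counts of Iglv1 were 570, 1328, 726 and 192 counts in control 1, 3, 65 and 69 and 456, 56, 217 and 175 in etanercept 17, 19, 50 and 52. Iglv3 had 40, 251, 45 and 11 counts in the controls and 43, 26, 12 and 124 in the etanercept mice. Iglv2 was at 0 in 5 of the 8 mice and had 26 counts in control 3, 17 in etanercept 19 and 26 in etanercept 50. Iglv2 is 97.5% identical to Iglv1 over the last 280 bases. The lambda share of all light chain V counts was 13, 7.72, 11.3 and 3.8% in the controls and 10.4, 2.96, 5.63 and 4.64% in the etanercept mice. The groups overlapped, at 8.95 ± 4.07% and 5.90 ± 3.18% (SD, n = 4 per group, two-sided exact permutation test, p = 0.257, adjusted p = 0.428 over 10 summary measures). The difference, -3.05 percentage points, was -1.70 without control 1 and -4.76 without control 69.

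The V genes were also read from the fit over all genes. Of the 138 chosen genes, 80 passed the filter on low counts (39 heavy, 39 kappa and 2 lambda) and held 92.0% of the V counts, and 1 of these, Igkv1-132, was above the filter's level in the control group only. In edgeR, 0 of the 80 had an edgeR p of 0.05 or less after Benjamini-Hochberg adjustment, where the share of all 15472 genes tested was 0%. At p of 0.05 or less before adjustment, 11 of them were lower in the etanercept group and 0 were higher, where 3.63% of all genes tested were lower and 2.99% higher. This direction rested in part on control 3, without which 6 of 12 such V genes were higher. Without control 1 there were 20 such genes, of which 1 was higher. DESeq2 gave 1 gene, Igkv1-132, at an adjusted p of 0.05 or less with the Benjamini-Hochberg method, of the 106 V genes for which it gave an adjusted p, where the share over all genes was 0.115%. The groups did not overlap for 2 genes that were lower, Igkv19-93 and Igkv1-132, and for 0 that were higher, where the share of all genes tested was 2.52% lower and 2.42% higher. The share of V genes without overlap was 2.50% and lay near that of all genes, and the direction of Igkv1-132 is in part set by its passing the filter through the controls alone. The median log2 fold change was -0.81 over the 80 V genes and -0.01 over all genes tested. The V genes tested share cells and clones within a mouse, so they are not independent.

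Most of the chosen segments found in 1 group were also found in the other. The threshold of 20 counts left out 27 V genes with 1 to 19 counts, among them Ighv5-9-1, found in controls only. A segment with few counts is more readily missed in 1 group, so this choice favours sharing. Of the 76 heavy segments, 67 had a count in both groups, 6 in controls only and 3 in etanercept mice only. Ighv3-1 had 611 counts in control 3 and 44 in control 69 and was at 0 in the etanercept group, while Ighv1-58 had 23, 17 and 24 counts in etanercept 17, 19 and 52 and was at 0 in the controls. Both were picked for naming after their values were seen. Of the 59 kappa segments, 55 had a count in both groups, 3 in controls only and 1 in etanercept mice only. Fewer heavy than kappa segments were found in every mouse: 7 heavy segments were found in all 8 mice and held 22.8% of heavy V counts, whereas 21 kappa segments were found in all 8 and held 83.8% of kappa V counts. Found here means 1 count or more, which is below the floor of 3 counts. Some heavy and kappa segments, such as Igkv2-109 with 2 counts in etanercept 19, reached all 8 mice only through counts below that floor. The totals were unequal, at 990 to 12240 heavy and 3242 to 19195 kappa V counts per mouse, and a segment is found more readily at a higher total. The chains were not compared at a matched depth. For 39 heavy and 24 kappa segments, more than 50% of the summed shares came from 1 mouse.

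Concentration was measured as the effective number of segments, the exponential of the Shannon entropy of the shares, which equals the number of segments if all are used equally. For heavy V segments it was 9.33, 22.5, 18.8 and 29.6 in control 1, 3, 65 and 69 and 33.0, 35.9, 20.8 and 27.5 in etanercept 17, 19, 50 and 52. Control 1 was the most concentrated mouse and had the fewest heavy V counts per 100 heavy constant counts, at 1.28. For the effective number, 2 etanercept mice lay above every control. The means were 20.1 ± 8.45 and 29.3 ± 6.66 (SD, n = 4 per group, two-sided exact permutation test, p = 0.171, adjusted p = 0.428 over 10 measures). For kappa V segments it was 15, 19.6, 12.5 and 12.4 in the controls and 24.8, 19, 19.3 and 13.4 in the etanercept mice. The means were 14.9 ± 3.34 and 19.1 ± 4.64 (SD, n = 4 per group, two-sided exact permutation test, p = 0.2, adjusted p = 0.428). The share of the leading segment was 21.8 ± 16.0% and 12.2 ± 5.53% for heavy V (exact permutation test, p = 0.314, adjusted p = 0.449) and 29.6 ± 5.59% and 21.7 ± 9.83% for kappa V (p = 0.229, adjusted p = 0.428). None of these 4 measures passed the test, and the smallest p that 4 against 4 mice allow in this exact test is 0.0286. Single mice moved the differences of etanercept minus control. That of the heavy effective number, 9.2, was 5.62 without control 1, and that of the heavy leading share, -9.66 percentage points, was -1.71 without control 1 (exact permutation test, p = 0.657). For kappa the difference in effective number, 4.24, was 2.36 without etanercept 17, and that in leading share, -7.88 percentage points, was -4.20 without etanercept 17 and -11.9 without etanercept 52. With the number of segments expected at the smallest total of any mouse in place of the effective number, the difference was 3.35 for heavy (exact permutation test, p = 0.629) and -1.07 for kappa (p = 0.914), where the sign was turned.

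Sharing was measured for each pair of mice as the overlap, the sum over segments of the smaller of both shares. Heavy usage overlapped by 29.4 ± 6.19% in the 6 control pairs, 42.5 ± 5.36% in the 6 etanercept pairs and 29.5 ± 7.65% in the 16 pairs across groups (SD over pairs, which share mice). The etanercept pairs ranged from 35.6 to 49.4% and the highest control pair was 37.5%. Within-group overlap exceeded that across groups by 0.065 as a fraction (two-sided exact permutation test over 70 assignments of mice, p = 0.0571, adjusted p = 0.428 over 10 measures). Kappa usage overlapped by 42.4 ± 6.69%, 50.4 ± 7.69% and 44.9 ± 7.71% in the same 3 kinds of pairs, and the excess within groups was 0.0152 (exact permutation test, p = 0.543, adjusted p = 0.543). The heavy excess was 0.123 without control 69 and 0.0315 without etanercept 50, and the kappa excess was 0.0399 without control 3 and -0.00644 without etanercept 17. The difference between etanercept and control pairs, a measure chosen after the data were seen, was 13 percentage points for heavy usage (exact permutation test, p = 0.0857, adjusted p = 0.257 over 6 such measures) and 8.03 for kappa usage (p = 0.229, adjusted p = 0.343). Without etanercept 52 the heavy difference was 17.6 (exact permutation test, unadjusted p = 0.0286), and over leaving out each mouse it ranged from 9.34 to 17.6. The kappa difference ranged from 4.44 without etanercept 17 to 14.8 without etanercept 52, and was 13.7 without control 1 and 4.74 without control 3. By the Morisita-Horn index, a similarity that weighs large shares more, the differences were 23.8 for heavy and 3.07 for kappa (exact permutation test, p = 0.0571 and 0.8).

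**Figure D3:**
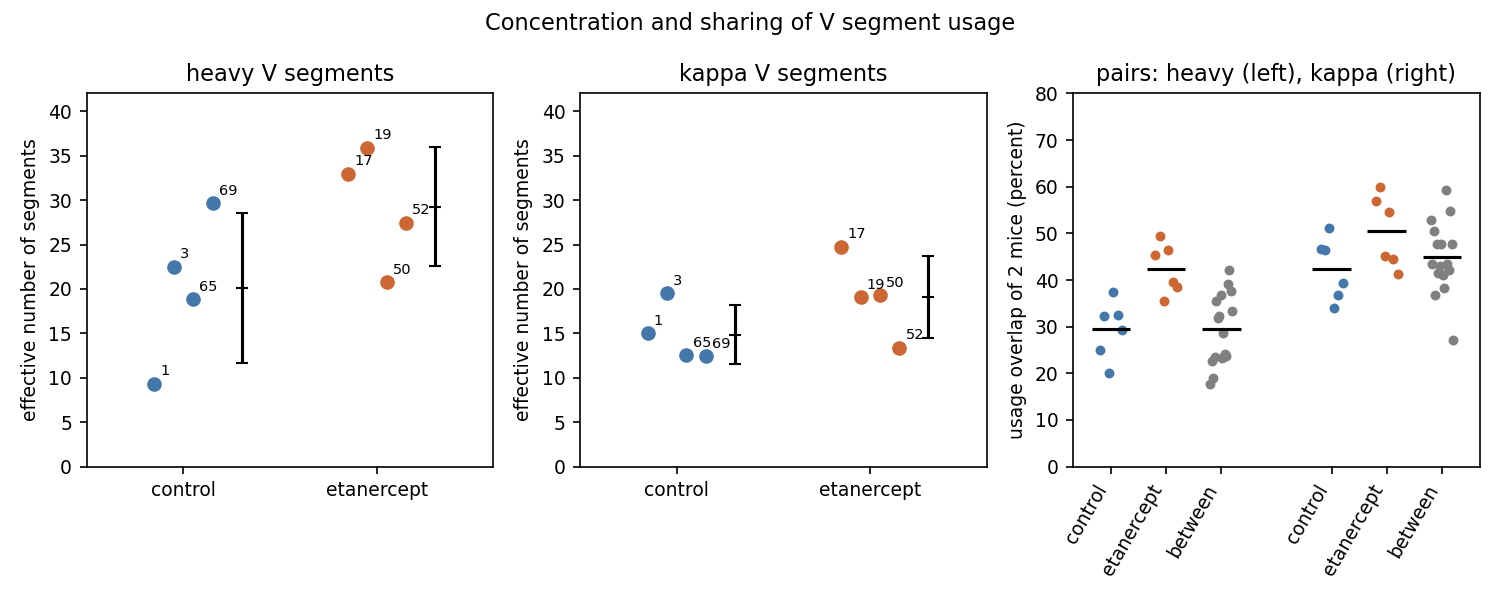
Effective number of heavy (left) and kappa (middle) V segments in each mouse, labelled by animal number, with the group mean and SD, and usage overlap in percent of each pair of mice (right), with the mean of each kind of pair as a line. Heavy overlap is 42.5% on average among etanercept pairs and 29.4% among control pairs.

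By family, the Ighv1 genes, the largest heavy family with 38 chosen members, held 78.8, 65.5, 73.3 and 47.5% of heavy V counts in control 1, 3, 65 and 69 and 50.3, 43.2, 40.7 and 57.3% in etanercept 17, 19, 50 and 52. Control 69 lay within the etanercept range. Of 22 families with a mean share of at least 1%, 2 had p of 0.05 or less before adjustment in the exact permutation test, both in the kappa locus. Igkv12 held 6.12, 8.09, 4.12 and 3.12% in the controls and 10.6, 9.25, 11.7 and 15.3% in the etanercept mice, so all 4 etanercept mice were higher than every control (exact permutation test, p = 0.0286, adjusted p = 0.314). Igkv19, with Igkv19-93 alone, held 10.3 ± 9.05% and 1.68 ± 0.854% (SD, n = 4 per group, exact permutation test, p = 0.0286, adjusted p = 0.314). The difference for Igkv19, -8.63 percentage points, was -4.25 without control 3. Neither family passed the adjustment.

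Position along the loci was compared after the data were seen. Kappa V genes on the strand of Igkc join by deletion of the DNA between V and J, and those on the other strand by inversion. Genes on the strand of Igkc held 16.5, 23.6, 19.4 and 18.5% of kappa V counts in control 1, 3, 65 and 69 and 38.6, 33.7, 26.6 and 23.8% in etanercept 17, 19, 50 and 52. The etanercept mice were all higher, with etanercept 52 close to control 3 (exact permutation test, p = 0.0286, adjusted p = 0.172 over 6 measures). Igkv17-127, with a mean share of 3.0% in controls and 7.14% in etanercept mice, and Igkv1-110, with 1.85% and 4.88%, were the plus strand genes with the most added share, and Igkv1-110 was picked for naming after its values were seen. The 23 plus strand genes went both ways, and Igkv1-132 was among those with a lower share, at 0.913% and 0.0407%. Without etanercept 19 the difference for Igkv17-127 was 2.33 percentage points. Heavy segments in the part of the locus nearer the D segments held 54.6 ± 15.3% and 67.4 ± 7.79% (SD, n = 4 per group, exact permutation test, p = 0.171, adjusted p = 0.342), and the difference of 12.7 percentage points was 5.60 without control 65.

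Heavy and kappa V counts were small beside those of the constant regions of the same chains, and lambda V counts were less so. Per 100 counts of heavy constant genes there were 1.28, 5.0, 2.97 and 8.03 heavy V counts in control 1, 3, 65 and 69 and 4.55, 7.40, 4.94 and 11.9 in etanercept 17, 19, 50 and 52. Per 100 counts of Igkc there were 1.84, 6.70, 3.91 and 21.3 kappa V counts in the controls and 5.34, 20.6, 10.1 and 19.3 in the etanercept mice. Per 100 counts of lambda constant genes there were 39.9, 57.0, 65.9 and 52.7 lambda V counts in the controls and 38.7, 29.7, 35.0 and 88.5 in the etanercept mice. For heavy and kappa, the mice with few constant counts, control 69 and etanercept 19 and 52, had the highest ratios; the kappa ratio ranged from 1.84 to 21.3. Control 1 had the lowest heavy and kappa ratios. What part these ratios had in the V totals and in the concentration of usage was not tested. Igha, the constant gene of IgA, made up 59.5, 61.8, 64.9 and 12.8% of heavy constant counts in the controls and 24.9, 4.59, 28.3 and 16.3% in the etanercept mice.

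Markers of other cells were read from fixed lists, with log2 fold changes from edgeR. Over all 15472 genes tested, 0% were called after Benjamini-Hochberg adjustment and 3.63% were lower and 2.99% higher at p of 0.05 or less before it. Of 12 plasma cell genes, 11 were tested, with 0 called after adjustment, 2 lower at p of 0.05 or less before adjustment and a median log2 fold change of -0.38. Their summed expression, led by Jchain, was 1597.4, 5085.6, 3339.6 and 1197.8 CPM in control 1, 3, 65 and 69 and 1826.3, 996, 1284.5 and 1530.6 CPM in etanercept 17, 19, 50 and 52, high in the same controls as the V segments. The 13 B cell genes, led by Cd79a, summed to 132.9, 503.1, 156.5 and 127.1 CPM in the controls and 246.3, 85.4, 175.5 and 65.3 CPM in the etanercept mice, with a median log2 fold change of -0.59 and none at p of 0.05 or less before adjustment. Of the 8 genes of recombination and early B cells, Rag1, Rag2, Vpreb2 and Igll1 were at 0 in every mouse. Ebf1 had between 50 and 512 counts, and Vpreb3 had up to 170 and was at 0 in control 69 alone. Vpreb1 had at most 14 counts, and Dntt had 7 in control 65 and 0 elsewhere. The list summed to between 3.24 and 29.0 CPM. The 6 germinal centre genes had a median log2 fold change of 0.20, and among the 9 genes of B cell survival and homing, 3 were lower at p of 0.05 or less before adjustment, Cxcl13, Ccr10 and Tnfrsf13b.

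The remaining lists describe what else the tissue held. Of 7 T cell genes 4 and of 6 macrophage genes 3 were lower at p of 0.05 or less before adjustment in edgeR, with medians of -1.05 and -0.83, where 3.63% of all genes tested were lower at that p. Of the 4 lymph node stroma genes, Glycam1 was the most abundant, with a list sum between 1.55 and 15.3 CPM. The entries read for Ccl21a and Ccl19 were at 0 in every mouse. Both entries lie on the scaffold JH584294.1, and any entries of these symbols elsewhere were not examined. Absence of these 2 transcripts is therefore not shown. The prostate luminal genes, led by Sbp, summed to 13154, 69652, 27587 and 228675 CPM in control 1, 3, 65 and 69 and 10663, 179759, 183444 and 66480 CPM in etanercept 17, 19, 50 and 52. Sbp was at 1544.1 CPM in control 1 and 225419.8 in control 69, whereas Pbsn was at 9152.9 and 1092.4 CPM in these mice. Krt8 lay between 274.9 and 474.7 CPM and Krt18 between 557 and 1065 CPM. The labelled tissue was thus present in each mouse, but the sum does not measure its amount. The 4 seminal vesicle genes, led by Svs2, summed to 87672 CPM in etanercept 17, 3557.5 in control 69 and at most 600.9 in the other mice. The adipocyte genes, led by Adipoq, summed to 28.7, 78.9, 3.03 and 21.8 CPM in the controls and 0.698, 2.19, 2.57 and 4.64 CPM in the etanercept mice, and 3 of 3 were lower at p of 0.05 or less before adjustment, where the share of all genes tested was 3.63%. Among them Retn had 249, 191, 10 and 94 counts in the controls and 0, 0, 3 and 0 in the etanercept mice. Retn passed the filter on low counts through the controls alone, so its direction is in part set by the filter. DESeq2 called 1 of the 3 after Benjamini-Hochberg adjustment, where 0.115% of all genes were called, and edgeR called 0. The erythroid list, led by Hba-a1, had a median of -0.17. The skeletal muscle list, led by Acta1, summed to 67.4, 1457.5, 197.2 and 516.5 CPM in the controls and 682.6, 717.7, 1029.1 and 1309.3 CPM in the etanercept mice. Its 2 tested genes went in opposite directions, with 1.10 for Acta1 and -1.19 for Ckm, and Ckm was at 161 CPM in control 3 and at most 23.4 CPM elsewhere. Myh4 was not tested and had 5287 counts in control 3, 18 in control 65 and 0 in the other mice. The part of these differences in tissue in the V segment values was not tested.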

How the data were processed

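RNA from prostates of 8 mice, 4 per group by the sample labels, was poly(A)-selected and sequenced as paired reads. The submitters' processing notes name fastp, STAR 2.6.1d, featureCounts 1.5.0-p3 and DESeq2 1.26.0 with the build mm10, which is GRCm38. The authors deposited raw counts per gene and mouse, without normalization; the counting options for strand and for reads with several positions were not given in the sources used here. Genes were matched to GENCODE M21, in which 37 of 54532 identifiers were not found.

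The total count per mouse lay between 13760669 and 25178942. The fit over all genes used edgeR 4.0.16 (R 4.3.3) with TMM factors, filterByExpr, quasi-likelihood tests and Benjamini-Hochberg adjustment, and DESeq2 1.42.0 as an alternative. Usage is the percent of the V counts of a chain. Single values per mouse were compared by two-sided exact permutation tests over 70 assignments (scipy 1.17.1), adjusted by the Benjamini-Hochberg method over 10 measures, with log2(CPM + 1) for totals. Sequence identity used edlib. Shares of 1 mouse carry Wilson intervals at 95%, and 3 counts of the chain total are the floor. Functions were tested on simulated data.

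Named genes are the 8 heavy and 8 kappa segments of largest mean share, all lambda segments, the leading segment of each mouse, at most 5 in each direction with the smallest unadjusted p of 0.05 or less, which took 5 lower and 0 higher genes, the genes at the threshold and the marker lists. Ighv3-1, Ighv1-58, Ighv1-55, Ighv1-61, Ighv8-12 and Igkv1-110 were named after their values were seen. The members and lists were chosen with earlier results of these data known. Alternatives were other scaling, pseudocounts, filters, measures, all V genes and leaving out each mouse; those on exon length, strand, position, constant genes and pairs of 1 group were chosen after seeing the data.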

Additional observations from a re-analysis of the deposited data

Results flagged for a closer look

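In 70 groups of 4 values, 15 had a mouse far from the other 3, a gap that chance gives in about 1 in 20 groups of normally distributed values. CPM of single segments are skewed and hold many zeros, so the rate for them is not known, and for Iglv2 the other 3 controls were at 0. Control 1 stood apart in the share of its leading heavy segment, 45.7%, and in Ighv1-22, at 29.1 CPM. Etanercept 50 stood apart with a leading heavy share of 20.4%. Control 3 was the high control for Ighv1-15 at 112.1 CPM, Ighv1-7 at 20.9 CPM, Igkv19-93 at 299.1 CPM, Igkv17-127 at 88.6 CPM, Igkv12-44 at 76.6 CPM, Iglv3 at 16.7 CPM and Iglv2 at 1.73 CPM. Etanercept 52 was the high etanercept mouse for Ighv1-52 at 10.7 CPM, Ighv1-7 at 17.1 CPM, Igkv6-20 at 143.5 CPM and Igkv12-44 at 57.2 CPM. Etanercept 17 was the high etanercept mouse for Igkv2-109 at 26.6 CPM. The cause was not tested.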

How the results depend on the processing

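Across 402 values under alternatives, 367 kept their direction and their side of the threshold or, for counts of genes and families, stayed near the main count. Many of these values were log2 fold changes of V genes, whose adjusted p in the main edgeR fit was 0.739 or more. They lay far from the threshold, so that keeping their side of it says little. In DESeq2, 1 V gene in place of 0 passed the adjusted threshold, and 21 of 107 in place of 11 of 80 had an unadjusted p of at most 0.05, against 24 of 138 in edgeR without a filter beyond 1 count. The shares of all genes at that p were 5.84%, 6.62% and 5.29% in the same order. Leaving out single mice gave from 8 to 20 such V genes and from 4.22 to 11.4% of all genes, with 20 and 5.97% without control 1. The number of families at that p was 2 at most and 0 at least, with 0 without etanercept 52 and 1 without etanercept 17 or 19. On leaving out single mice the difference stayed between 5.15 and 7.24 percentage points for Igkv12 and between -11.2 and -4.25 for Igkv19. The excess of heavy overlap within groups ranged from 0.0315 to 0.123 and was highest without control 69 (exact permutation test, p = 0.0286). That of kappa ranged from -0.00644 to 0.0399 and was -0.00537 by the Morisita-Horn index. The number of segments expected at the smallest total differed between the groups by 3.35 for heavy and -1.07 for kappa, against 9.2 and 4.24 for the effective number.

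Signs of log2 fold changes turned on leaving out single mice: Ighv1-22 ranged from -3.31 to 1.72, Ighv3-6 from -0.43 to 0.99, Ighv1-15 from -4.05 to 1.73, Igkv6-20 from -2.02 to 0.39, Igkv10-96 from -0.61 to 0.51, Igkv17-127 from -1.08 to 2.28, Igkv12-44 from -2.31 to 1.66, Igkv2-109 from -0.63 to 1.66, Iglv3 from -1.86 to 0.92 and Ighv1-61 from -2.80 to 2.32. The highest values came without control 3 for Ighv3-6, Ighv1-15, Igkv6-20, Igkv10-96, Igkv17-127, Igkv12-44, Iglv3 and Ighv1-61 and without control 1 for Ighv1-22. The kappa share on the strand of Igkc stayed higher in the etanercept group, by 8.54 to 13.5 percentage points. In the exact permutation test its p was 0.0571 without control 1, 3, 65 or 69 or etanercept 17 and 0.0286 without etanercept 19, 50 or 52. All 4 etanercept mice lay above every control, so the groups stayed apart whichever mouse was left out. The p of 0.0571 in these smaller groups therefore does not show an overlap. The cause of these changes was not tested. Segments below the floor of 3 counts could not be told from 0 at this depth. Animals of both groups share no number, and the labels give no pairs or blocks, so no paired analysis was made. The paper states that mice were put into groups at random by block stratification, and the labels do not name these blocks.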
